A study of Mus musculus with 6 samples.

Results

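Transcript levels of 9 glucose sensing genes of pancreatic beta cells were followed in mouse islets: Slc2a2, Gckr, G6pc2, Pcx, Mdh1, Me1, Glud1, Gpd2 and Abcc8. They were picked by name, as the rows with these symbols, out of 48397 genes with deposited read counts. The study sequenced polyadenylated RNA of isolated wild-type C57B6 mouse islets that were left overnight to recover and then cultured for 24 h. Control islets received DMSO and treated islets received recombinant mouse prolactin at 500 ng/mL, with 3 libraries in each group. The cell type is labelled "Mixed" and age and sex are not given. Because the origin of the replicates (mouse or culture) is unstated, the p-values cover the spread among these libraries alone, which may be technical. The question the comparison addresses is which transcripts of the glucose sensing machinery differ in amount after a day with the hormone.

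Beta cells measure glucose by metabolising it. Slc2a2 carries glucose across the membrane, the sugar is phosphorylated and broken down to pyruvate, and mitochondria turn part of the products into ATP, while G6pc2 reverses the phosphorylation. Pyruvate also enters the citrate cycle by carboxylation through Pcx and is regenerated through malate by Mdh1 and Me1. Cytosolic NADH reaches the respiratory chain through shuttles that use Gpd2 or Mdh1, and Glud1 feeds glutamate into the cycle. The resulting ATP closes a potassium channel whose regulatory subunit is Abcc8, which depolarises the cell and triggers insulin release. Prolactin is a pituitary hormone whose receptor signals through STAT5 in beta cells and which is known for its part in the growth of islets in pregnancy.

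The windows upstream of the start sites differed widely in base composition, and those of 4 genes are shown because these genes stand for glucose entry, the opposing phosphatase, and both genes with a positive log2 change. RefSeq windows of GRCm38.p6 covered 8 of the 9 genes with 12 windows, each from 250 bases before to 50 bases after an annotated start. Printed below are the 250 bases before the first listed start, 5′ to 3′ on the gene's strand. Capitals mark matches on either strand to CACGTG (the E-box), CCAAT (read as ATTGG on the other strand) or GGGCGG (the GC box, CCGCCC on the other strand).
Slc2a2, chr3:28697653-28697902, + strand: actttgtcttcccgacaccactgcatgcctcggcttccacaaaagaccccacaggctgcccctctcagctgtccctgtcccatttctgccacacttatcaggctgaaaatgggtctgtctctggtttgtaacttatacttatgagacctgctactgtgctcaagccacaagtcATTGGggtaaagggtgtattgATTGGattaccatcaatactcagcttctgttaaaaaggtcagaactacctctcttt
G6pc2, chr2:69210823-69211072, + strand: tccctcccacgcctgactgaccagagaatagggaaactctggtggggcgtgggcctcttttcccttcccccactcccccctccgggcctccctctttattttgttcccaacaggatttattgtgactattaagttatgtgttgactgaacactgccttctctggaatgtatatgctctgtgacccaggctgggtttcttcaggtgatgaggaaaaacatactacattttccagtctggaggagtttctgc
Pcx, chr19:4510222-4510471, + strand: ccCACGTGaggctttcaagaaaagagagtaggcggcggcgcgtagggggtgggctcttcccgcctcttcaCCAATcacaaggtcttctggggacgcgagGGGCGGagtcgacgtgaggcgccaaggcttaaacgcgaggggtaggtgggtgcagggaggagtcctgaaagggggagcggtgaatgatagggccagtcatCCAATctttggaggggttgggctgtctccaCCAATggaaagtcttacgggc
Glud1, chr14:34310477-34310726, + strand: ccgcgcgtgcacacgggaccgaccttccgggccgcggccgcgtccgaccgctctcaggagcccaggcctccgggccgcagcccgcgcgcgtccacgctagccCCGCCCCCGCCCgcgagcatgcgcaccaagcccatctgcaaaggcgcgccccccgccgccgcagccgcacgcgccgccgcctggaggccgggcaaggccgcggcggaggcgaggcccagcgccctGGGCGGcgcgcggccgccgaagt
Over the whole 300-base windows, GC content was 48.0% at Slc2a2, 50.7% at G6pc2, 61.7% at Pcx and 81.0% at Glud1, against a median of 52.7% over 32851 windows of all genes. The Slc2a2 window held CCAAT at 2 places, 77 and 56 bases before the start, and the G6pc2 window held none of the motifs searched. At Pcx, CACGTG began 248 bases before the start, CCAAT matched at 3 places, and 1 of its 2 GC boxes ran across the start. The Glud1 window had 3 GC boxes, of which a pair lay end to end in the run CCGCCCCCGCCC.

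TTCNNNGAA, the other motif searched for this comparison, is the general form of the element bound by STAT factors. It occurred in 0 of the 12 member windows and in 8.3% of all 32851 windows, both strands searched. Cish, a feedback inhibitor of cytokine receptor signalling that served as a positive control, is shown for contrast. Its window held the motif 2 times within 20 bases that begin at the start site, with the matches in capitals.
Cish, chr9:107296659-107296678, + strand: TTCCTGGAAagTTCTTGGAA
Of the other motifs, CCAAT stood in 6 of the 12 member windows (37.4% of all windows), GGGCGG in 5 (35.7%), CACGTG in 1 (7.15%) and TATAAA in 0 (13.6%). Windows matched for 3 of the 4 positive-control genes, not for Socs2, and TTCNNNGAA stood in 1 of 3 windows of Prlr and 0 of 2 of Tph1. These matches describe letters in short windows and do not show binding. Cish transcripts went from 8.16 ± 0.580 CPM (control) to 39.8 ± 2.89 CPM (prolactin; SD, n = 3), a log2 change of 2.28 (edgeR adjusted p = 8.49e-06). CPM are read counts scaled with TMM to a library of common size, so that 1 CPM stood for 232 to 537 reads.

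Libraries held between 230834000 and 530296000 reads assigned to genes, with control replicate 1 the deepest. The 9 genes together took 0.403% to 0.420% of the reads in control and 0.379% to 0.392% in prolactin libraries. Prolactin replicates 2 and 3 lay closer to each other than any other pair, with a root mean square log2 distance of 0.0568 against 0.163 to 0.264, and whether they came from separate preparations is unstated. They are labelled as separate replicates and were counted as 2, and with both summed into 1 library, a choice made after seeing the data, 0 of the 9 genes were called as well. All 4 positive-control genes, Cish, Socs2, Prlr and Tph1, rose under prolactin. Insulin transcripts were abundant (Ins2 at 79029 CPM in control), and summed beta cell markers (12 genes) spanned 116043 to 142713 CPM in control and 118199 to 123825 CPM in prolactin libraries. Summed stromal markers (9 genes) did not overlap, at 347 to 518 CPM against 709 to 881 CPM. Nor did summed delta and PP cell markers (6 genes), at 8024 to 8488 CPM against 5663 to 7024 CPM. Of these 6 genes, Sst (2401 ± 134 to 1821 ± 30.6 CPM) and Ppy (3394 ± 232 to 2039 ± 486 CPM; SD, n = 3) did not overlap. Hhex, Rbp4, Ghsr and Pyy overlapped between groups. Alpha cell markers (8 genes) spanned 23825 to 37916 CPM and 35516 to 36825 CPM, and acinar markers (10 genes) 512 to 2881 CPM and 841 to 1910 CPM. Summed duct (6 genes), endothelial (7 genes), leukocyte (7 genes) and hepatocyte (6 genes) markers overlapped between groups. The endothelial sums met only at the edge, at 279.8 to 328.2 CPM against 327.8 to 337.3 CPM. Of single genes, 2 duct and 3 endothelial markers were higher without overlap, and 1 leukocyte and 1 hepatocyte marker lower. Over all tested genes, 21.6% did not overlap. Summed adipocyte markers (5 genes), at 4.74 to 5.49 CPM against 5.66 to 7.87 CPM, did not overlap. Most of that sum was Fabp4, at 4.61 to 5.35 CPM in control and 5.44 to 7.78 CPM with prolactin. Adipoq, Plin1, Lep and Cidec, each at most 0.129 CPM in any library, overlapped. The part of these shifts in the results below was not tested, apart from the values relative to beta cell markers. In whole islets, fewer cells of a type and less RNA per cell cannot be told apart.

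None of the 9 genes passed the test for a difference between prolactin and control. The edgeR quasi-likelihood test with Benjamini-Hochberg adjustment at 0.05 called 0 of 9, beside 0.828% of the 23924 genes tested (171 higher, 27 lower), and DESeq2 and limma-voom also called 0 of 9. At an unadjusted p under 0.05, 4 of 9 were below the threshold, against 14.6% of all tested genes and 18.9% of the 11590 genes averaging 5 CPM or more. The control and prolactin libraries did not overlap for 3 of 9, namely Glud1 (prolactin above) and Slc2a2 and Gpd2 (prolactin below), against 21.6% of all tested genes and 26.7% of those with at least 5 CPM. Of the log2 changes, 7 of 9 were negative, with a median of -0.13, while 50.2% of all tested genes were negative with a median of -0.00072, and 55.1% of those with at least 5 CPM with a median of -0.0151. Except for Gckr, each gene rested on at least 11747 reads in every library. With the replicate number as a further term, edgeR called Pcx higher (adjusted p = 0.00987) and Slc2a2 lower (adjusted p = 0.0461). That fit called 539 genes higher and 167 lower among all tested, and the labels do not tie replicate numbers to animals.

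**Figure D1:**
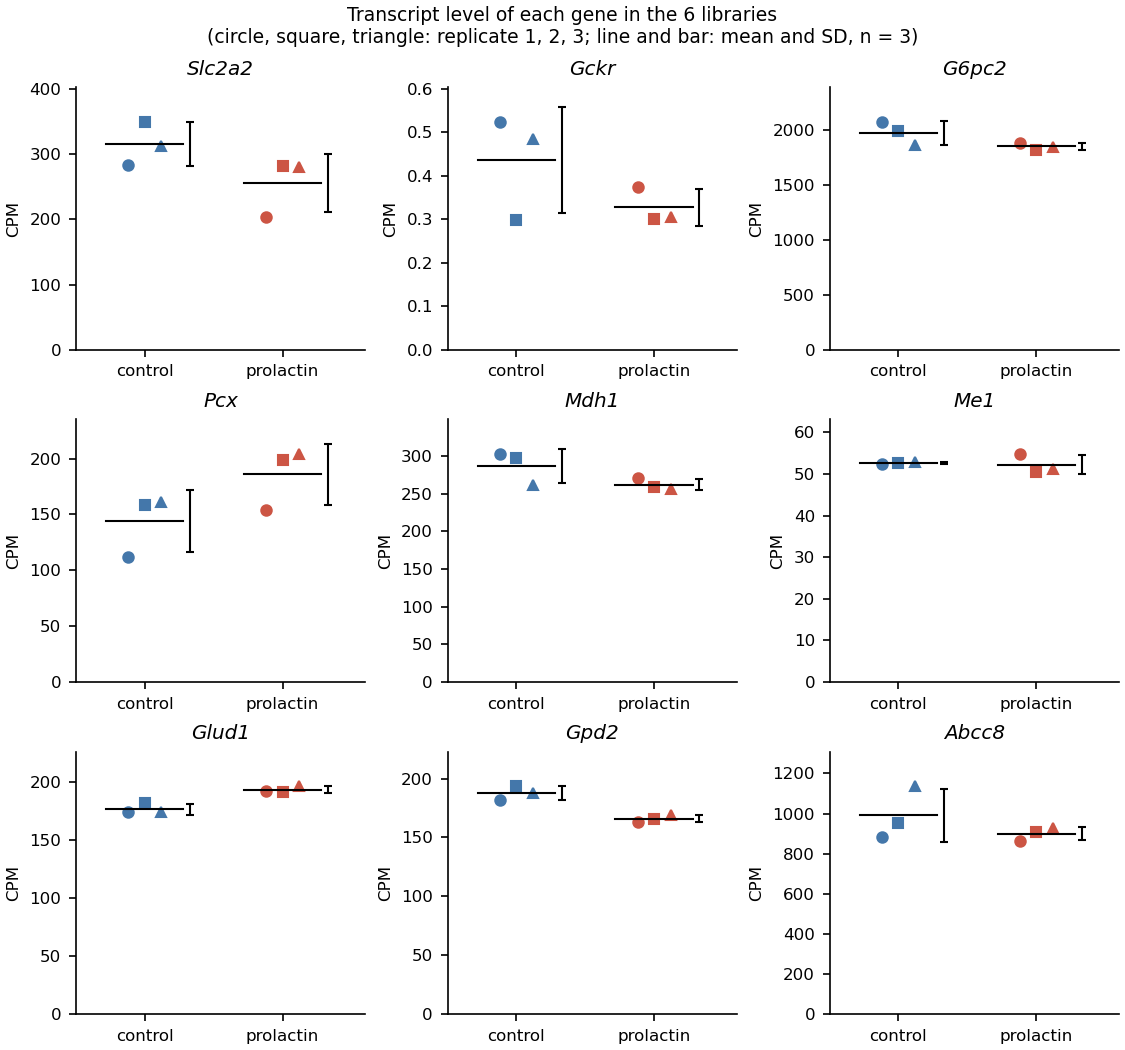
CPM (linear axes from 0) of each of the 9 genes in the 3 control and 3 prolactin libraries, with symbols for replicates 1 to 3 and lines for mean and SD. Glud1, Gpd2 and Slc2a2 have groups that do not overlap, and the low points are prolactin replicate 1 for Slc2a2 and control replicate 1 for Pcx.

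Slc2a2 encodes GLUT2, the main glucose transporter of rodent beta cells, on mm10 chr3:28697903-28731359 (+ strand, 11 merged exons of 5755 bases). Its level was 283, 349.7 and 312 CPM in control replicates 1 to 3 and 204, 281 and 281 CPM in prolactin replicates 1 to 3. All prolactin libraries were under all control libraries, although the gap from the lowest control to the highest prolactin value was small and prolactin replicate 1 was far below its companions. The means were 315 ± 33.5 and 255 ± 44.5 CPM (SD, n = 3), a log2 change of -0.30 (SE 0.13, adjusted p = 0.318 by edgeR). The 95% interval of the change ran from -33.5% to -1.12% before adjustment for the number of genes. Without prolactin replicate 1 the log2 change was -0.17, the smallest of the 6 fits that left out 1 library, and the largest was -0.38. Among genes with at least 5 CPM, 5.38% had a larger absolute log2 change than Slc2a2.

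Gckr encodes a regulatory protein known from glucose metabolism in the liver, and lies on chr5:31297443-31327314 (+ strand, 17 merged exons of 4335 bases). It was scarce in islets, with 282, 81 and 130 reads in control and 87, 70 and 81 reads in prolactin replicates 1 to 3. In CPM these were 0.525, 0.298 and 0.486 against 0.376, 0.301 and 0.306, so that control replicate 2 lay under all prolactin libraries and the other control libraries above them. The mean of 0.436 ± 0.121 CPM in control and 0.327 ± 0.042 CPM with prolactin gave a log2 change of -0.46 (SE 0.25, adjusted p = 0.443 by edgeR). Leaving out control replicate 1 gave -0.26, and leaving out control replicate 2 gave -0.64. Its 95% interval, from -50.7% to 7.49%, was the widest of the 9 genes on the log2 scale. Albumin (Alb), a hepatocyte marker, was at 1.59 ± 0.220 CPM in control and 1.43 ± 0.251 CPM with prolactin (SD, n = 3). Of the other hepatocyte markers, Apoa1 (0.196 CPM), Serpina1a (0.126 CPM) and Cyp3a11 (0.0234 CPM) had control means under that of Gckr. Fgb (61.5 CPM) and Ttr (1297 CPM), the latter also on the alpha cell list, had control means above it. Which cells the Gckr reads came from was not tested.

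G6pc2, the islet form of the phosphatase that returns glucose 6-phosphate to glucose, was the most abundant member. The gene spans chr2:69211073-69227841 (+ strand, 6 merged exons of 1974 bases). Control libraries held 2073, 1985 and 1858 CPM and prolactin libraries 1881, 1818 and 1841 CPM. The prolactin values lay close together near the lowest control library, and 2 of them were under it. Means of 1972 ± 108 and 1847 ± 31.6 CPM gave a log2 change of -0.09 (SE 0.07, adjusted p = 0.594 by edgeR), with a 95% interval from -16.2% to 4.67%. The log2 change was -0.06 without control replicate 1 and -0.14 without control replicate 3.

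Pcx, pyruvate carboxylase, supplies oxaloacetate to the citrate cycle and is encoded at chr19:4510472-4621752 (+ strand, 22 merged exons of 4272 bases). Control replicates 1 to 3 had 112, 159 and 162 CPM, and prolactin replicates 1 to 3 had 154, 199 and 204 CPM. Control replicate 1 was the lowest library and prolactin replicate 1 lay among the controls, while prolactin replicates 2 and 3, the pair of near-alike libraries, were above all others. The mean was 144 ± 27.7 CPM in control and 186 ± 27.5 CPM with prolactin, a log2 change of 0.37 (SE 0.15, adjusted p = 0.300 by edgeR) with a 95% interval from 2.31% to 62.7%. Leaving out control replicate 1 gave 0.22, leaving out prolactin replicate 1 gave 0.48, and summing prolactin replicates 2 and 3 into 1 library gave 0.31. Of the members, Pcx had the largest positive value and also the largest spread over all 6 libraries, 0.87 on the log2 scale.

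Malate made from the product of mitochondrial Pcx is handled in the cytosol by Mdh1 and Me1. Mdh1, the cytosolic malate dehydrogenase of the malate-aspartate shuttle, lies on chr11:21556787-21572367 (- strand, 9 merged exons of 2567 bases). It had 303, 297 and 261 CPM in control and 271, 259 and 256 CPM in prolactin libraries. Control replicate 3 lay within the prolactin range and the other control libraries above it. Means of 287 ± 22.8 and 262 ± 7.79 CPM gave a log2 change of -0.13 (SE 0.07, adjusted p = 0.411 by edgeR). Without control replicate 3 the change was -0.20, and without control replicate 1 it was -0.09. Mdh1 shares 52 exon bases with Wdpcp on the opposite strand, and Me1 shares 30 with A330041J22Rik.

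Me1, the cytosolic malic enzyme that makes pyruvate and NADPH from malate, was the steadiest member across libraries. The gene is at chr9:86581371-86695953 (- strand, 17 merged exons of 3848 bases). Its level was 52.3, 52.7 and 52.9 CPM in control and 54.9, 50.5 and 51.2 CPM with prolactin, so that the control libraries sat inside the prolactin range. The means of 52.6 ± 0.288 and 52.2 ± 2.33 CPM differed by a log2 change of -0.01 (SE 0.05, adjusted p = 0.940 by edgeR). The 95% interval ran from -8.69% to 7.67%, and the sign was not stable, with 0.01 when libraries were scaled to beta cell markers.

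Glud1, the mitochondrial glutamate dehydrogenase that links amino acids to the citrate cycle, lies on chr14:34310727-34345144 (+ strand, 15 merged exons of 4089 bases). Its counts came to 174, 182 and 174 CPM in control replicates 1 to 3 and to 193, 191 and 197 CPM in prolactin replicates 1 to 3. Every prolactin library was above every control library, and both groups were narrow. The means of 176 ± 4.44 and 193 ± 2.95 CPM gave a log2 change of 0.13 (SE 0.05, adjusted p = 0.266 by edgeR), with a 95% interval from 1.48% to 18.4%. In the fits that left out 1 library the change stayed between 0.12 and 0.15.

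Gpd2, the mitochondrial glycerol 3-phosphate dehydrogenase, passes electrons from cytosolic NADH to the respiratory chain and had the smallest p-value of the 9 genes. The gene occupies chr2:57237635-57370719 (+ strand, 22 merged exons of 6549 bases). Control libraries had 182, 194 and 188 CPM and prolactin libraries 163, 166 and 169 CPM. The groups did not overlap, and the SD within each was at most 6.09 CPM. From 188 ± 6.09 to 166 ± 3.01 CPM the log2 change was -0.18 (SE 0.05, adjusted p = 0.159 by edgeR), with a 95% interval from -18.4% to -4.27%. Leaving out 1 library kept the change between -0.20 and -0.16. Of its exon bases, 487 also belong to A930012O16Rik on the opposite strand, and the counts do not use strand, so reads there cannot be assigned to either gene.

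Abcc8 encodes SUR1, the sulfonylurea-binding subunit of the ATP-sensitive potassium channel, at chr7:46104523-46180033 (- strand, 38 merged exons of 8090 bases). It had 883, 953 and 1138 CPM in control and 862, 906 and 926 CPM in prolactin libraries. Control replicate 3 stood above all others, while control replicate 1 lay among the prolactin libraries. The mean of 991 ± 132 CPM in control and 898 ± 32.5 CPM with prolactin corresponded to a log2 change of -0.14 (SE 0.09, adjusted p = 0.535 by edgeR), with a 95% interval from -21.8% to 4.98%. Without control replicate 3 the log2 change was -0.03, and without control replicate 1 it was -0.22.

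**Figure D2:**
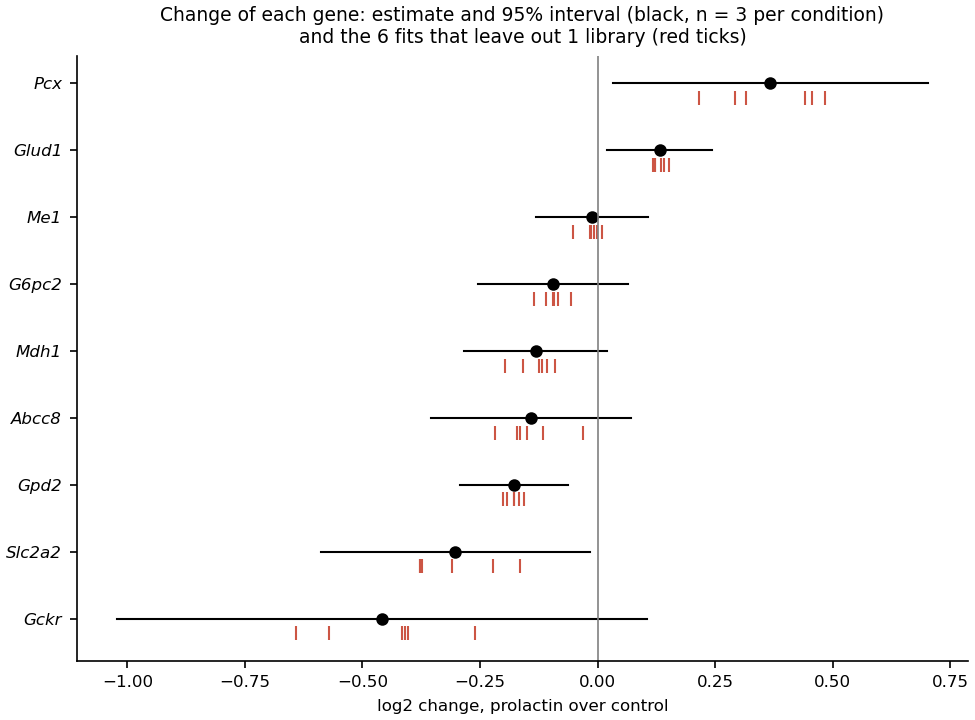
Log2 change of prolactin over control for each of the 9 genes, with its estimate and 95% interval (black, 3 libraries per condition) and the 6 fits that each leave out 1 library (red ticks). Intervals of Pcx, Glud1, Slc2a2 and Gpd2 do not span 0 before adjustment, and the red ticks are widest apart for Gckr, Pcx and Slc2a2.

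**Figure D3:**
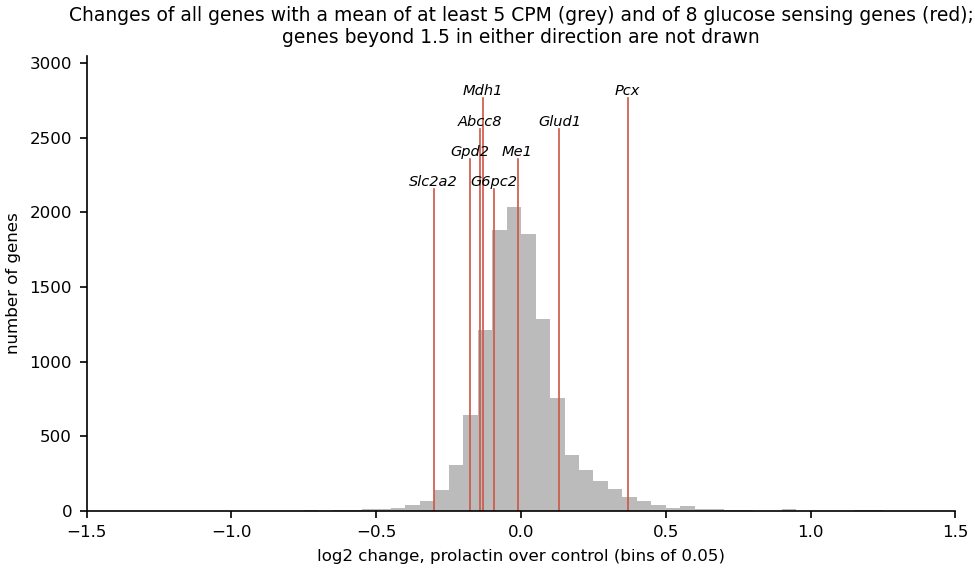
Number of genes by log2 change (bins of 0.05) for genes averaging 5 CPM or more (grey), with the 8 glucose sensing genes that reach this level marked in red. Slc2a2 and Pcx lie farthest out, and the other members lie within the central part of the distribution.

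In the authors' deposited table, whose log2 fold changes a DESeq2 run on the counts matched within 1e-06 for 40905 of 40905 genes, the adjusted p-values of the members ranged from 0.0730 for Pcx to 0.963 for Me1. The authors' deposited table lists 0.0945 for Gpd2 and 0.122 for Slc2a2. None of the 9 genes was under 0.05 there.

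Members were compared with each other per kilobase of gene model. In control libraries, G6pc2 stood at 999 ± 54.8 RPKM (CPM divided by the gene model length in kilobases; SD, n = 3), Abcc8 at 123 ± 16.3 and Mdh1 at 112 ± 8.86. The next levels were 54.7 ± 5.82 RPKM for Slc2a2, 43.2 ± 1.09 RPKM for Glud1, 33.7 ± 6.49 RPKM for Pcx and 28.7 ± 0.930 RPKM for Gpd2. Me1 followed at 13.7 ± 0.0748 RPKM and Gckr came last at 0.101 ± 0.0280 RPKM. In this order, the ranges of Abcc8 and Mdh1 overlapped over the control libraries, as did those of Pcx and Gpd2, while the other neighbours were apart. With prolactin, Slc2a2 (35.4 to 48.9 RPKM), Glud1 (46.7 to 48.1 RPKM) and Pcx (36.1 to 47.8 RPKM) overlapped with one another. By this measure over all 6 libraries, G6pc2 ranked 25 among 23924 genes, Abcc8 281, Mdh1 307, Slc2a2 893, Glud1 996, Pcx 1222, Gpd2 1869, Me1 3890 and Gckr 20180. Taking the longest transcript as the length raised Abcc8 from 123 to 203 RPKM and Gckr from 0.101 to 0.192 RPKM in control libraries, and in 3 of the 6 libraries it exchanged the places of Slc2a2 and Glud1, and in control replicate 1 also those of Mdh1 and Abcc8.

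Related genes put these levels in context. Slc2a2 exceeded Slc2a1, the widespread basal glucose transporter, 3.14 to 7.24 times per length over the 6 libraries, and the high-affinity Slc2a3 15.1 to 30.4 times, or 8.52 to 17.2 times with the longest transcripts. The islet phosphatase gene G6pc2 was 45.9 to 58.0 times the ubiquitous G6pc3, or 33.9 to 42.8 times with the longest transcripts. Abcc8 was 102 to 195 times Abcc9, the subunit typical of muscle channels, or 151 to 290 times with the longest transcripts. Mdh1 was 1.91 to 2.20 times its mitochondrial partner Mdh2 by gene model length, but 0.943 to 1.09 times with the longest transcripts, so their order depends on the length used. Cytosolic Me1 was at 0.820 to 0.952 times the mitochondrial Me2, or 1.03 to 1.20 times with the longest transcripts, and 51.2 to 79.4 times Me3, or 18.4 to 28.5 times with the longest transcripts. Gpd2 was 2.26 to 2.43 times Gpd1, its cytosolic partner in the shuttle, in control and 1.83 to 1.91 times with prolactin. These ranges did not overlap, nor did those of Abcc8 over Abcc9 (148 to 195 in control, 102 to 142 with prolactin) and of Slc2a2 over Slc2a3 (19.0 to 30.4 in control, 15.1 to 18.7 with prolactin). Of the ratios of all pairs of genes averaging 5 CPM or more, 28.7% did not overlap between the groups. Gpd2 over Gpd1l, at 3.99 to 4.26 and 4.16 to 4.44, and Slc2a2 over Slc2a1, at 3.92 to 7.24 and 3.14 to 5.55, overlapped.

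**Figure D4:**
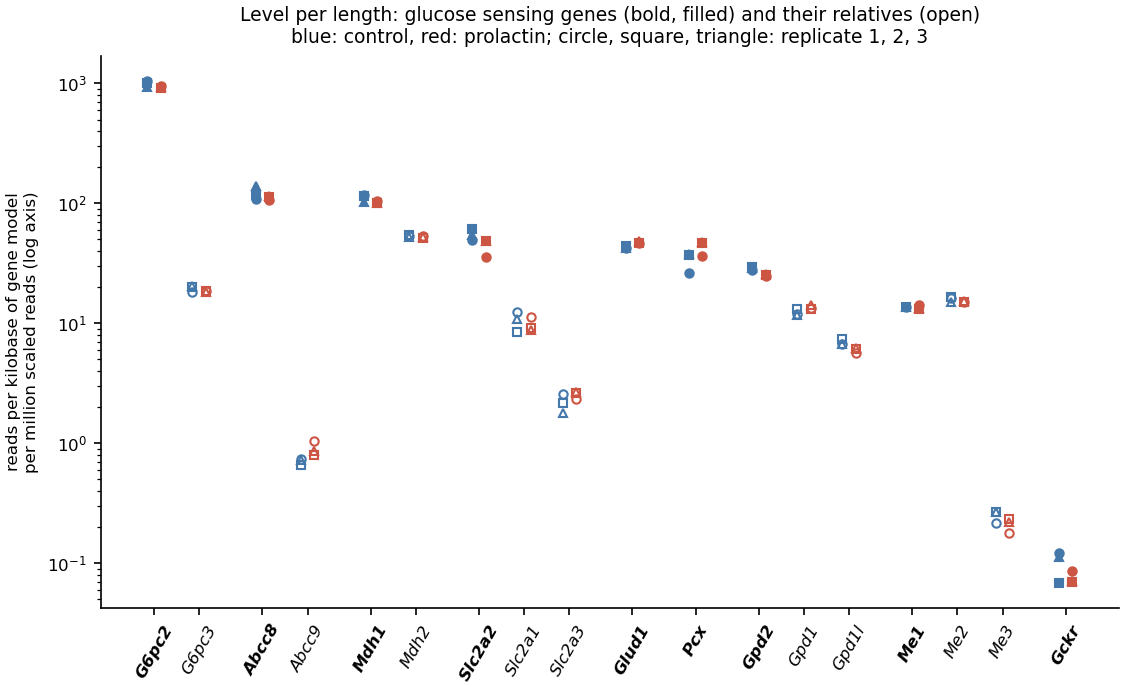
RPKM (CPM per kilobase of gene model, log axis) in each of the 6 libraries for the 9 glucose sensing genes (filled) and related genes (open), with control in blue and prolactin in red. Control means run from 999 for G6pc2 to 0.101 for Gckr, and each gene's 6 points are close together on this scale.

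Ratios of 2 members within a library do not depend on library scaling. Of the 36 pairs, 10 had control and prolactin ranges that did not overlap, all among the 28 pairs without Gckr. This is 27.8% of the 36 and 35.7% of the 28, beside 28.7% of all pairs of the 11590 genes averaging 5 CPM or more, so a separated ratio is common in these libraries. These pairs were picked out after their values were seen and are descriptions, since with 3 against 3 libraries an exact permutation test, two-sided, cannot give less than 0.1. Per length, Slc2a2 over Pcx was 1.87, 1.63 and 1.43 in control and 0.980, 1.05 and 1.02 in prolactin replicates 1 to 3, so that the genes stood near equal amounts with prolactin. Glud1 over Gpd2, per length, was 1.53, 1.50 and 1.48 in control against 1.89, 1.84 and 1.86 with prolactin, with each group narrower than the gap between them. Slc2a2 over Glud1 was 1.16, 1.37 and 1.27 against 0.753, 1.05 and 1.01, with the lowest value again in prolactin replicate 1. G6pc2 over Mdh1 spanned 8.69 to 9.26 in control and 9.03 to 9.35 with prolactin, and these ranges overlapped.

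**Figure D5:**
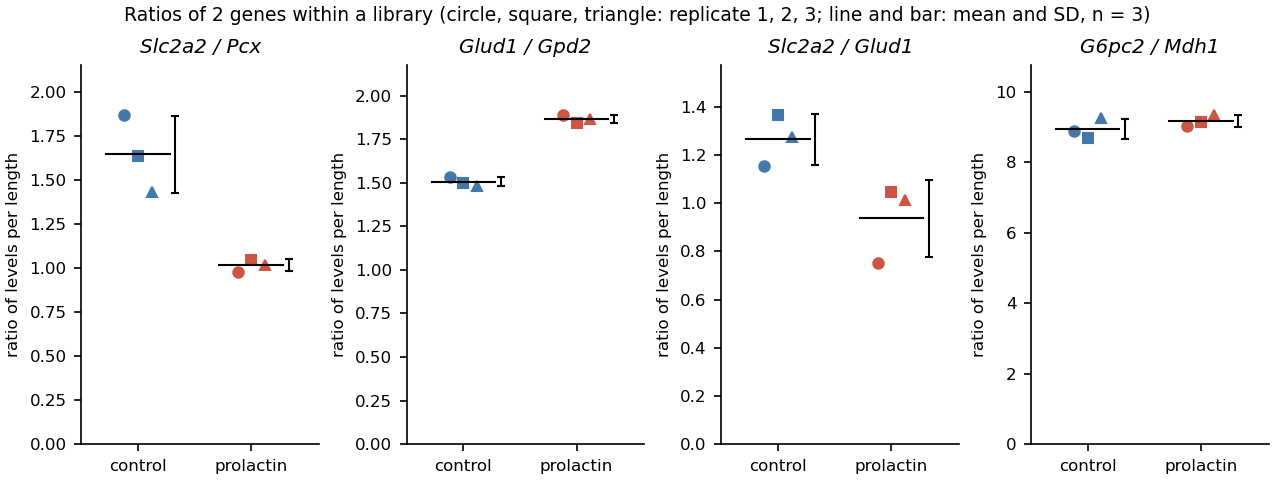
Ratios of levels per length between pairs of genes within each library (linear axes from 0), with symbols for replicates 1 to 3 and lines for mean and SD over 3 libraries. Slc2a2 over Pcx and Slc2a2 over Glud1 are lower and Glud1 over Gpd2 is higher in all prolactin libraries, while G6pc2 over Mdh1 overlaps.

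Relative to beta cell transcripts, 2 of the 9 genes, Slc2a2 and Pcx, had groups that did not overlap, beside 11.4% of all 23924 genes on the same scale. The geometric mean of the 12 beta cell markers was 647, 783 and 728 CPM in control and 638, 734 and 748 CPM in prolactin replicates 1 to 3, which overlapped. Slc2a2 was 0.429 to 0.446 times this mean in control and 0.319 to 0.383 times with prolactin. Pcx was 0.173 to 0.222 times in control and 0.242 to 0.273 times with prolactin, so that its groups, which overlapped in CPM, did not overlap on this scale. Glud1 (0.232 to 0.269 and 0.260 to 0.302) and Gpd2 (0.247 to 0.281 and 0.226 to 0.256) overlapped here, although they did not in CPM. With this scaling the edgeR test also called 0 of 9.

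Other genes of the same pathways were read from lists, and the edgeR test called none of them in either direction. Of 23 genes of transport, hexose phosphorylation and glycolysis, 18 had negative log2 changes (median -0.12), and 7 were under an unadjusted p of 0.05, all negative. Nearest to the threshold were Gapdh, the glyceraldehyde phosphate dehydrogenase (50.9 ± 4.79 to 42.0 ± 2.58 CPM, log2 -0.28, edgeR adjusted p = 0.153), Pkm, the main pyruvate kinase gene (1403 ± 88.2 to 1186 ± 6.22 CPM, -0.24, adjusted p = 0.155), and Pfkl, a phosphofructokinase subunit (107 ± 12.2 to 88.0 ± 2.51 CPM, -0.28, adjusted p = 0.159). DESeq2 called these 3 genes lower, beside 776 higher and 303 lower over all genes, and limma-voom called 0 of the list. For comparison with this list and those below, 14.6% of all tested genes were under an unadjusted p of 0.05 by edgeR, and 50.2% were negative. Among genes with at least 5 CPM these shares were 18.9% and 55.1%. Gapdh has near-identical pseudogene copies, so its count is uncertain.

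Among 28 genes of pyruvate cycling, NADH shuttles and the citrate cycle, 22 were negative (median -0.06), with 1 positive and 4 negative at an unadjusted p under 0.05. Slc25a13, a mitochondrial aspartate-glutamate carrier of the malate-aspartate shuttle, went from 10.1 ± 0.501 to 8.26 ± 0.272 CPM (log2 -0.29, edgeR adjusted p = 0.104), the only gene of the list that DESeq2 called, and limma-voom called 0. Gpd1l and the cytosolic isocitrate dehydrogenase Idh1 followed with log2 changes of -0.22 and -0.21 (adjusted p = 0.172 and 0.188). Gpd1 had 36.4 ± 2.07 CPM in control and 40.2 ± 1.40 CPM with prolactin (log2 0.14, adjusted p = 0.319), opposite in sign to Gpd2. For Mdh2 the log2 change was -0.02, for Me2 -0.08 and for Me3 -0.24, with adjusted p-values from 0.449 to 0.863.

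The 12 genes of glutamate and glutamine metabolism had 7 positive changes (median 0.04), with 2 positive and 2 negative at an unadjusted p under 0.05, and DESeq2 and limma-voom called 0. Gpt2, the mitochondrial alanine transaminase, had a log2 change of 0.26 (edgeR adjusted p = 0.178). Aldh18a1, which starts proline synthesis from glutamate, had 0.17 (adjusted p = 0.235), and Abat, the GABA transaminase, had -0.25 (adjusted p = 0.249). Of the 13 channel and triggering genes, 8 were positive (median 0.04), and all 3 with an unadjusted p under 0.05 were positive. Trpm5, a calcium-activated cation channel of beta cells, had 5.12, 7.07 and 6.01 CPM in control and 7.79, 10.7 and 11.1 CPM with prolactin (log2 0.71, adjusted p = 0.0790). Abcc9 had 5.90 ± 0.377 and 7.52 ± 1.12 CPM (log2 0.35, adjusted p = 0.198) and Rapgef4, the cAMP sensor Epac2, a log2 change of 0.17 (adjusted p = 0.248). DESeq2 called Trpm5 and Abcc9 higher, and limma-voom called 0.

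Genes of glucose-responsive transcription, factors and targets together, 7 in number, had a median log2 change of 0.01, with 5 positive. Ppp1r3c, a glycogen-targeting phosphatase subunit, had 3.34, 3.33 and 3.10 CPM in control and 2.30, 2.14 and 2.53 CPM with prolactin (log2 -0.49, edgeR adjusted p = 0.0680). It was the only gene of this list under an unadjusted p of 0.05 and the only one DESeq2 called, while limma-voom called 0. Mlx, the partner of the glucose-responsive factor ChREBP, had -0.07 (adjusted p = 0.620), and the arrestin-like Arrdc4 had 0.09 (adjusted p = 0.707), with its sign turning to -0.01 when prolactin replicate 1 was left out.

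Among members, G6pc2 and Mdh1 had the most similar pattern over the 6 libraries. Likeness was the root mean square difference of log2 CPM after centring each gene on its own mean, computed against 11590 genes with at least 5 CPM, and it carries no p-value because all genes share the same libraries. For G6pc2 and Mdh1 it was 0.0353, and 2.99% of genes were closer to G6pc2 than Mdh1 was. Gckr and Pcx were farthest apart, at 0.584. Slc2a2 lay closest to Aqp11, a water channel gene (0.0489), and to Dzip1 (0.0607). Aqp11 had 17.7, 22.8 and 20.3 CPM in control and 14.3, 18.2 and 18.6 CPM in prolactin libraries, also lowest in prolactin replicate 1. Pcx was closest to the collagen gene Col6a6 (0.0550) and to Pclo, which encodes an active-zone protein (0.0584). Col6a6 had 54.9, 78.6 and 83.4 CPM in control and 72.1, 104 and 104 CPM with prolactin, again lowest in control replicate 1. Abcc8 was nearest to Slc2a8, another glucose transporter gene (0.0210), and to Slc12a9 (0.0301). G6pc2 was nearest to Ist1 and Thoc5, Mdh1 to Tssc1 and Cers5, Me1 to Tsen54 and Dsg2, Glud1 to Mical2 and Cdca4, Gpd2 to Rad50 and Hsf2, and Gckr to Diras2 and Ifit3.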

How the data were processed

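Per the file headers, reads were assigned to GENCODE vM10 gene models on mm10 by featureCounts 2.0.3, and the authors deposited raw counts. SAMtools 1.21, Subread 2.1.0 and DESeq2 are named in the submitters' processing notes, and no aligner is stated in the sources used. Counting used no strand, and the recorded command reads pairs without counting them as pairs, so mates may be counted separately and no interval from counts alone is given. The authors' deposited table holds a mean signal for each gene, its log2 fold change, a test score and p-values.

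TMM scaling and edgeR's filterByExpr (counts of 10, totals of 15) left 23924 genes, all 9 members among them, for edgeR 4.0.16 in R 4.3.3. A quasi-likelihood fit with condition as its only term gave two-sided tests, adjusted over all genes tested by Benjamini-Hochberg with a threshold of 0.05. The procedure was tested on simulated data. Intervals of log2 changes use the fit's SE and its total degrees of freedom, residual plus prior, which were 8.99 for each member. Levels per length use the gene model length, or the longest GENCODE vM21 transcript as an alternative. Promoter windows came from RefSeq (GRCm38.p6), which matched 8 of the 9 members, all but Abcc8. Motifs were spelled as given and searched on both strands.

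The members and lists were chosen with earlier results of these data known. Genes named were every member, in each other list the 3 genes with the smallest p-values and any that passed, related genes of a member, and the 2 genes nearest to each member in pattern. Library totals ranged from 230834000 to 530296000 reads. Alternatives were DESeq2 1.42.0, limma-voom (limma 3.58.1), other scalings and filters, edgeR's legacy option, leaving out hormone and mitochondrial genes, a replicate block and leaving out each library. Summing prolactin replicates 2 and 3 was added after seeing the data.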

Additional observations from a re-analysis of the deposited data

How the results depend on the processing

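With all genes, 171 were called higher and 27 lower by edgeR. These counts became 66 and 3 with scaling to beta cell markers, 776 and 303 with DESeq2, and 48 and 2 with prolactin replicates 2 and 3 summed, and 43 were lower with the filter of 1 CPM in 3 libraries, which removed Gckr. Leaving out 1 library gave 43 to 365 higher and 1 to 241 lower, lowest without prolactin replicate 2 and highest without control replicate 3. The cause was not tested. Of the members, 0 were called under each of these settings.

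The replicate numbers were not treated as pairs, since same-numbered libraries deviated together with correlations of 0.541, 0.324 and 0.0872 and prolactin replicate 3 correlated best with control replicate 2. With the replicate block, all genes gave 539 higher and 167 lower, and the members 1 higher, Pcx (log2 0.38, adjusted p = 0.00987, against 0.0730 to 0.634 under its other alternatives), and 1 lower, Slc2a2 (-0.31, adjusted p = 0.0461, against 0.122 to 0.569). The other pathway lists, with 0 calls in the test reported, gave 1 higher and 4 lower with the block. They gave 1 higher with scaling to beta cell markers (Trpm5), 2 higher and 5 lower with DESeq2, 1 lower with no filter (Pkm), and 0 to 2 higher and 0 to 3 lower when 1 library was left out.

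The sign of the log2 change reversed for Me1 with scaling to beta cell markers (0.0145) and with prolactin replicates 2 and 3 summed (0.0056), and leaving out 1 library gave -0.0513 to 0.0105. For Arrdc4 that range was -0.00778 to 0.153. The other 8 members kept their sign under every alternative run. Depth limits Gckr most, which rests on 70 to 282 reads per library and has an interval from -50.7% to 7.49%. The labels do not tie libraries to animals.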
